A study of Mus musculus with 10 samples.

Results

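The 8 genes described here encode transcription factors of epithelial cells: Grhl1, Grhl2 and Grhl3, Ovol1 and Ovol2, Elf3, Ehf and Trp63. They were chosen by symbol, and each matched exactly 1 of the 45706 genes in the deposited tables. Their RNA was followed in 10 libraries that form 5 groups of 2: mouse embryonic fibroblasts (MEFs), the same kind of cell at 3 times of reprogramming to pluripotency, and embryonic stem cells. The MEFs and the induced cells carried a doxycycline-inducible cassette for Oct4, Klf4, Sox2 and Myc in the Col1a1 locus and the transactivator M2rtTA in the Rosa26 locus (OKSM Col1a1/M2rtTA ROSA26). MEFs were grown in MEF medium with no doxycycline and were not sorted. Day 3, day 6 and day 9 cells were grown in ESC medium with doxycycline at 1 µg/ml and ascorbic acid at 50 µg/ml. Day 3 cells were the whole culture, and day 6 and day 9 cells were sorted as positive for SSEA1, a surface sugar epitope of early pluripotent cells. The reference group was V6.5, a single embryonic stem cell (ESC) line grown on irradiated feeder cells in ESC medium, unsorted and without the cassette in its labelled genotype. All groups are labelled C57BL/6 x 129, and ages are not given. The comparison of day 3 with MEF therefore spans doxycycline, medium and ascorbic acid together, and day 6 with day 3 spans time and sorting together.

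Epithelial transcription factors hold cells in sheets by switching on adhesion, junction and surface genes and, in several cases, by opposing mesenchymal factors. Grainyhead-like factors (Grhl) bind the enhancers of junction genes such as Cdh1 and the claudins. Ovo-like zinc finger factors (Ovol) repress mesenchymal genes such as Zeb1. Elf3 and Ehf are Ets family members found in simple and glandular epithelia, and p63, the product of Trp63, maintains the basal cells of stratified epithelia. Fibroblasts pass through a mesenchymal-to-epithelial transition early in reprogramming, and embryonic stem cells themselves express epithelial adhesion genes.

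Libraries held 29585876 to 38275024 estimated reads. The series describes its samples as biological replicates but does not say which came from separate embryos or cultures, so p-values measure the spread between these libraries only. Of the cassette genes, Sox2 was at 3.25 to 3.48 CPM (counts scaled to a common library size) in MEFs and at 253 to 304 CPM in the induced libraries, and Pou5f1, the gene of Oct4, at 2.58 to 3.36 and 224 to 323 CPM. Klf4 (320 to 330 and 402 to 474 CPM) and Myc (117 to 118 and 275 to 334 CPM) were already present in MEFs and differed less. The induced libraries stood apart in sex-linked genes, with Xist at 930 to 1320 CPM against 0.742 to 0.793 CPM in MEFs and 9.01 to 11.3 CPM in ESCs, and Ddx3y at no more than 0.176 CPM against 86.4 to 90.6 and 26.1 to 26.8 CPM. In comparisons of induced cells with MEF or with ESC, the stage and that difference cannot be told apart. The summed level of 8 fibroblast markers (Col1a1, Thy1 and others) was 42700 to 44100 CPM in MEFs, 33.5 to 38.1 CPM at day 9 and 3590 to 3700 CPM in ESCs. Endothelial markers (Pecam1, Cdh5, Kdr and Tek) summed to 4.66 to 5.32 CPM in MEFs and 130 to 133 CPM at day 3, where Tek alone was at 121 CPM. The mitochondrial share of reads was 2.02% to 2.06% in MEFs and 5.0% to 5.32% at day 9. The part of these in the results was not tested. In these bulk libraries, fewer cells of a type and less RNA per cell cannot be told apart.

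Of the 4 genes with an entry in the set of RefSeq promoters used here (Grhl1, Grhl3, Ovol2 and Elf3, on GRCm38.p6), the 3 with bases to print are shown. Grhl1 has entries for 2 starts, of which the upstream one is printed. Each sequence is the part of the 250 bases before the start of transcription that lies outside annotated exons, which for Ovol2 left nothing to print. Capitals mark matches, on either strand, to the E-box of Snail and Zeb factors (CACCTG) or to a Klf motif (GGGNGTG), which do not overlap here.
Grhl1 (chr12:24572037-24572282, + strand): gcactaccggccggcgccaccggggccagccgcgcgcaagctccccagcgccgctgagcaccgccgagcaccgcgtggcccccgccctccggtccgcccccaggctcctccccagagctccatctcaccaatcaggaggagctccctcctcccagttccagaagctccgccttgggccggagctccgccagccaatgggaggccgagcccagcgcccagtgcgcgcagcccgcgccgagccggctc
Grhl3 (chr4:135573633-135573882, - strand): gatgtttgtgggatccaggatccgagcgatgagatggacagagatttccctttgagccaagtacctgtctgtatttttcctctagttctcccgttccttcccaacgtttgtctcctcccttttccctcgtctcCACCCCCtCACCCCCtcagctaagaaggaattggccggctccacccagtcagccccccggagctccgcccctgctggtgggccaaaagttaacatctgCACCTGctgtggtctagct
Elf3 (chr1:135258569-135258722, - strand): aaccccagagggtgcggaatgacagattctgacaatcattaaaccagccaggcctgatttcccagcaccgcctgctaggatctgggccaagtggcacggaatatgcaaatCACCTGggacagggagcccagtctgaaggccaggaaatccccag
The E-box of Elf3 began 140 bases before the start and that of Grhl3 began 19 bases before it. Grhl3 also held Klf motif matches at 117 and 109 bases before the start. The window of Ovol2, not printed, held a Klf motif match 50 bases before its start. Over the same 250-base window, 17.2% of 32851 mouse promoters held the E-box and 26.1% held the Klf motif. A Grainyhead motif (AACNGGTT), found in 1.79% of promoters, an Ets core (AGGAAG, 29.5%) and an Ovo core (CCGTTA, 2.18%) had no match in the 3 printed sequences. The window of the other Grhl1 start (chr12:24580469-24580718), which was 52.0% G and C with 0 CpG pairs, held an Ets core 201 bases before that start. Counted over the full 250 bases, printed or not, the upstream Grhl1 window was 75.6% G and C with 27 CpG pairs. Those of Grhl3 and Elf3 held 8 CpG pairs each. The medians over all promoters were 52.4% and 6.

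The factors did not move as a block. Ehf passed 100 CPM within 3 days, 6 others had higher levels at day 6 and again at day 9, Elf3 was the one of these with its highest level in ESCs, and Trp63 stayed under 1 CPM in all libraries. All 8 passed the filter on low counts, each through the groups in which it is high. A gene was called at an edgeR adjusted p under 0.05 with a change of at least 2-fold. Changes are given as log2 fold changes, here called log2 changes. At day 3, 5 of the 8 were higher than in MEFs, where 14.6% of all tested genes were higher, 14.5% lower and 29.1% either. Trp63, among these 5, lay at the threshold (edgeR adjusted p = 0.047). It was not called by DESeq2 (adjusted p = 0.27) or without the low-count filter (edgeR adjusted p = 0.063). At day 6, 6 of 8 were higher than at day 3, against 9.26% higher, 10.2% lower and 19.5% either among all genes. At day 9, 5 of 8 were higher than at day 6, against 5.18% higher, 2.68% lower and 7.87% either. In ESCs, 6 of 8 were lower than at day 9 and 1 was higher, against 14.3% lower, 18.6% higher and 32.9% either. Day 9 set against MEF gave 7 of 8 higher, with 24.1% of all genes higher, 19.8% lower and 43.9% either. ESC set against MEF gave 7 higher and 1 lower, with 25.5% of all genes higher, 20.6% lower and 46.1% either. Between MEF and day 9 the log2 changes of these 7 ran from 3.55 for Ovol1 to 11.31 for Grhl2, the latter on 3665 reads against 1, a ratio of 3100 with a 95% counting interval of 557 to 123000. Trp63 did not pass there (log2 change 0.38, edgeR adjusted p = 0.55). The median log2 change of the 8 was 2.08, 2.57, 1.16 and -2.02 at the 4 successive steps, beside 0.08, 0.03, 0.0 and 0.0 over all tested genes.

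**Figure D1:**
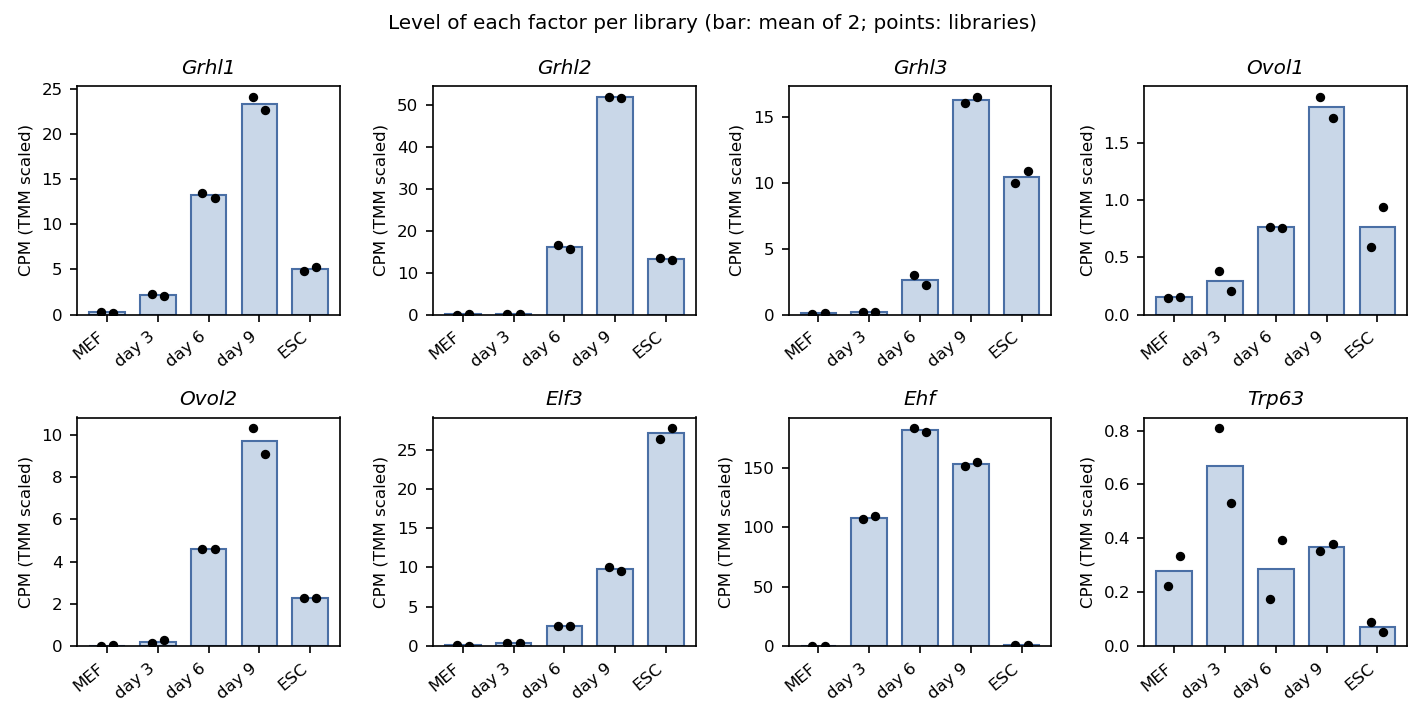
Level of each factor in CPM (y axis, linear, separate scale per gene) in the 5 groups (x axis), with bars for the mean of 2 libraries and points for single libraries. Ehf stands at 107 to 183 CPM from day 3 to day 9, most others peak at day 9, Elf3 peaks in ESCs and Trp63 stays below 1 CPM.

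Grhl2, the Grainyhead-like factor best known for holding the epithelial state, had its main step between day 3 and day 6. The gene is on chromosome 15 (37233036 to 37363569, GRCm38, + strand; ENSMUSG00000022286.13). The MEF libraries held 0 and 1 reads of it and the day 3 libraries 4 and 2, whereas those of day 6 held 566 and 518. On the CPM scale MEFs had 0.0 and 0.0305, day 3 cells 0.108 and 0.0591, day 6 cells 16.6 and 15.7, day 9 cells 52.0 and 51.7, and ESCs 13.6 and 13.1. Every group was separated from the next in level, with MEF and day 3 near 0 and day 9 highest. Day 3 did not pass the test against MEF (log2 change 2.11, SE 0.95, edgeR adjusted p = 0.11), and the ratio of 5.06 on 6 and 1 reads had a 95% counting interval of 0.614 to 233. From day 3 to day 6 it rose by a log2 change of 7.52 (SE 0.18, edgeR adjusted p = 2.1e-13). It rose again by 1.68 at day 9 (SE 0.07, edgeR adjusted p = 1.9e-10) and was lower in ESCs than at day 9, with a log2 change of -1.96 (SE 0.07, edgeR adjusted p = 3.7e-12). Antisense genes overlap Grhl2, and whether counting used strand is not given in the sources used here.

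Grhl1, which regulates desmosomal cadherins in skin, had already risen at day 3. Its locus is on chromosome 12 (24572283 to 24617391, + strand; ENSMUSG00000020656.13). MEFs had 0.332 and 0.122 CPM, day 3 cells 2.32 and 2.1, day 6 cells 13.5 and 12.9, day 9 cells 24.1 and 22.6, and ESCs 4.77 and 5.29. No 2 groups overlapped, and ESCs stood between day 3 and day 6. The rise at day 3 had a log2 change of 3.32 (SE 0.29, edgeR adjusted p = 1.2e-07) and the rise at day 6 one of 2.57 (SE 0.13, edgeR adjusted p = 6.8e-10). From day 6 to day 9 the difference of 0.82 (SE 0.1) was under 2-fold. ESCs were lower than day 9, by a log2 change of -2.21 (SE 0.11, edgeR adjusted p = 3.8e-10).

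Grhl3, needed for skin barrier formation and neural tube closure, had the smallest share of its day 9 level at day 6 among the 3 genes. The locus is on chromosome 4 (135541888 to 135573630, - strand; ENSMUSG00000037188.7). Grhl3 measured 0.0369 and 0.152 CPM in MEFs, 0.215 and 0.207 in day 3 cells, 3.03 and 2.24 in day 6 cells, 16 and 16.5 in day 9 cells, and 9.99 and 10.9 in ESCs. The groups again did not overlap, but MEF and day 3 rested on 6 and 15 reads, and their difference did not pass the test (log2 change 1.05, SE 0.6, edgeR adjusted p = 0.15). It passed without MEF replicate 2, with a log2 change of 2.4 (edgeR adjusted p = 0.049). Grhl3 rose by a log2 change of 3.62 at day 6 (SE 0.29, edgeR adjusted p = 7.5e-08) and of 2.63 at day 9 (SE 0.15, edgeR adjusted p = 1.1e-08). Among the Grainyhead-like genes it kept the largest part of its day 9 level in ESCs, 64.0% against 25.7% for Grhl2 and 21.6% for Grhl1, and the difference from day 9 was under 2-fold (log2 change -0.64, SE 0.13).

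Ovol2, a zinc finger repressor of mesenchymal genes, followed a similar course. The gene lies on chromosome 2 (144305175 to 144332146, - strand; ENSMUSG00000037279.11) and overlaps an antisense gene. Its CPM values were 0.0 and 0.0305 for MEFs, 0.162 and 0.266 for day 3, 4.59 and 4.57 for day 6, 10.3 and 9.09 for day 9, and 2.27 and 2.27 for ESCs. Day 9 was highest, ESCs lay between day 3 and day 6, and no groups overlapped. The rise at day 3 rested on 15 reads against 1, a ratio of 12.7 with a 95% counting interval of 1.95 to 533 (log2 change 3.4, SE 0.79, edgeR adjusted p = 0.0016). Without MEF replicate 2, which held that 1 read, the day 3 log2 change was 5.88. The rise at day 6 had a log2 change of 4.41 (SE 0.27, edgeR adjusted p = 4.1e-09). Day 9 was higher than day 6 by 1.08 on the log2 scale (SE 0.17, edgeR adjusted p = 0.00019), just past 2-fold, and without day 9 replicate 1 the value was 0.99 and no longer past it. ESCs were lower than day 9, with a log2 change of -2.09 (SE 0.18, edgeR adjusted p = 1.3e-07).

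Ovol1, its paralog in skin and germ cells, had a similar shape but few reads. Ovol1 is on chromosome 19 (5549136 to 5560646, - strand; ENSMUSG00000024922.1). An antisense gene and a pseudogene overlap it on the other strand. Single libraries gave 0.148 and 0.152 CPM for MEFs, 0.377 and 0.207 for day 3, 0.764 and 0.756 for day 6, 1.9 and 1.72 for day 9, and 0.589 and 0.935 for ESCs. Day 9 was highest, and the day 6 and ESC ranges overlapped. Ovol1 did not pass at day 3 (log2 change 0.95, edgeR adjusted p = 0.14). It rose by 1.36 at day 6 (SE 0.41, edgeR adjusted p = 0.012) and by 1.24 at day 9 (SE 0.35, edgeR adjusted p = 0.013), and it was lower in ESCs (log2 change -1.23, SE 0.35, edgeR adjusted p = 0.0057). With DESeq2 these 3 steps lost their calls, at adjusted p = 0.071, 0.087 and 0.063. The first was also lost without day 3 replicate 2 (edgeR adjusted p = 0.1). The second was lost without day 6 replicate 1, day 6 replicate 2 or day 9 replicate 1 (edgeR adjusted p of 0.061 to 0.068). The third was lost without ESC replicate 1 (edgeR adjusted p = 0.07).

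Ehf, an Ets factor of glandular and airway epithelia, had the highest level of the 8 per transcript length in the induced cells, and a course of its own. The gene maps to chromosome 2 (103263433 to 103303278, - strand; ENSMUSG00000012350.13). The 2 MEF libraries held 7 reads of Ehf and the 2 day 3 libraries 7676. As CPM, MEFs had 0.111 and 0.122, day 3 cells 107 and 109, day 6 cells 183 and 180, day 9 cells 151 and 155, and ESCs 0.566 and 0.646. The induced libraries were thus all above 100 CPM while MEF and ESC libraries were all below 1 CPM, and no groups overlapped. The ratio of day 3 to MEF was 925, with a 95% counting interval of 449 to 2300 (log2 change 9.81, SE 0.1, edgeR adjusted p = 1.4e-17). Only 15 of the 20165 tested genes had a larger log2 change at this step. Day 6 differed from day 3 by 0.75 (SE 0.03) and day 9 from day 6 by -0.25 (SE 0.03), both under 2-fold. In ESCs it was lower than at day 9 by a log2 change of -7.98 (SE 0.07, edgeR adjusted p = 6e-18). Against MEFs, ESCs were still higher, by 2.33 (SE 0.35, edgeR adjusted p = 2.9e-05), on 43 reads against 7.

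Elf3, the other epithelial Ets factor of the group and known from gut and lung, was the one member that ESCs expressed most. Elf3 lies on chromosome 1 (135253575 to 135258568, - strand; ENSMUSG00000003051.11) and overlaps an antisense gene. Levels were 0.185 and 0.0305 CPM for MEFs, 0.431 and 0.414 for day 3, 2.56 and 2.51 for day 6, 10 and 9.57 for day 9, and 26.4 and 27.7 for ESCs. Each group was above the one before it, with no overlap. At day 3 it rose by a log2 change of 2.04 on 30 reads against 6 (SE 0.49, edgeR adjusted p = 0.0021), a call lost without MEF replicate 2 (1.18, edgeR adjusted p = 0.093), while without MEF replicate 1 the value was 3.64. It then rose by 2.57 at day 6 (SE 0.23, edgeR adjusted p = 2.7e-07), by 1.95 at day 9 (SE 0.14, edgeR adjusted p = 6.4e-08) and stood 1.47 higher in ESCs than at day 9 (SE 0.11, edgeR adjusted p = 2e-08). At day 9 it had reached 36.2% of its ESC level.

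Trp63 stayed near the floor throughout. Trp63 lies on chromosome 16 (25683763 to 25892102, + strand; ENSMUSG00000022510.12). An snRNA gene on the other strand and a pseudogene on the same strand overlap it. The 10 libraries held 2 to 30 reads of Trp63 each. They gave 0.222 and 0.335 CPM for MEFs, 0.808 and 0.532 for day 3, 0.176 and 0.393 for day 6, 0.354 and 0.379 for day 9, and 0.0884 and 0.0534 for ESCs. Day 3 was highest and ESCs lowest, while day 6 overlapped with both MEF and day 9. The difference between day 3 and MEF lay at the threshold (log2 change 1.24, SE 0.51, edgeR adjusted p = 0.047). It was not called by DESeq2 (adjusted p = 0.27), and leaving out any of MEF replicates 1 and 2, day 3 replicate 1, day 9 replicates 1 and 2 or ESC replicates 1 and 2 also ended it (edgeR adjusted p of 0.056 to 0.25). ESCs were lower than MEFs on 5 reads against 17 (log2 change -1.95, SE 0.7, edgeR adjusted p = 0.021; DESeq2 adjusted p = 0.071), and without MEF replicate 2 or ESC replicate 2 that call was lost (edgeR adjusted p = 0.13 and 0.12). ESCs were also lower than day 9, on 5 reads against 26 (log2 change -2.33, SE 0.66, edgeR adjusted p = 0.0064), a call lost without ESC replicate 2. Day 6 and day 3 did not pass (log2 change -1.23, edgeR adjusted p = 0.052), but did without day 3 replicate 2 or day 6 replicate 2 (edgeR adjusted p = 0.048 and 0.029).

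**Figure D2:**
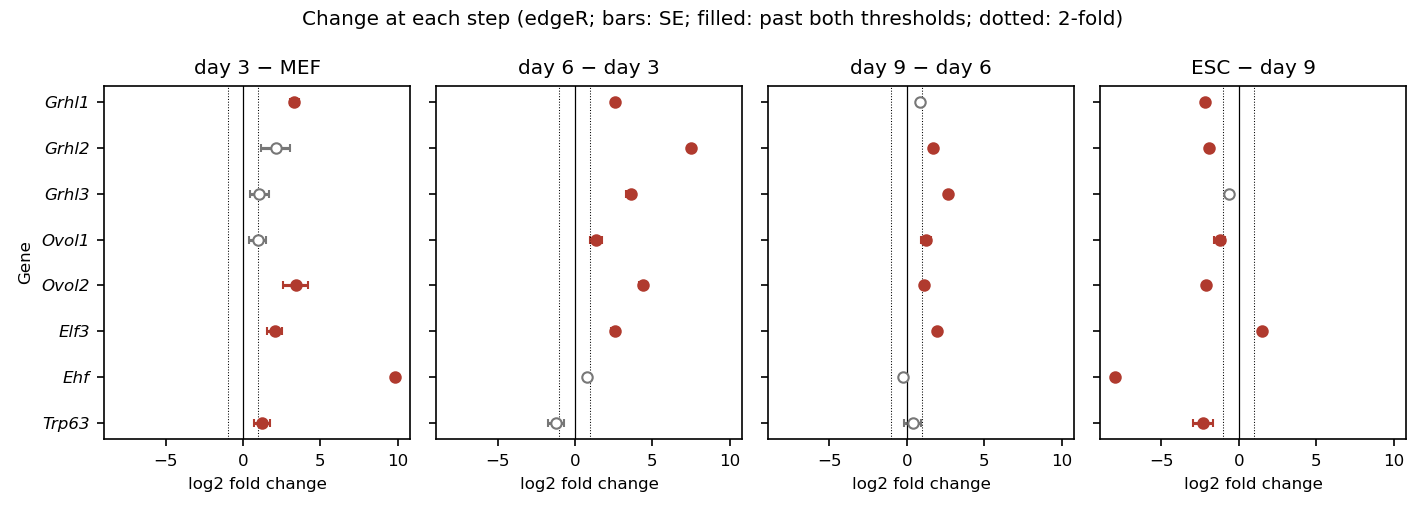
Log2 change (x axis) of each factor (y axis) at 4 successive steps, with SE as bars, filled points for changes past both thresholds and dotted lines at 2-fold. Ehf moves at the first and last steps (9.81 and -7.98), Grhl2 mainly at the second (7.52), and Elf3 is the one factor to the right of 0 at the last step (1.47).

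Expressed as a share of each gene's highest group mean, the members differed in timing. At day 3 Ehf had 59.6% of its maximum, Trp63 was at its own low maximum, Ovol1 had 16.2% and Grhl1 9.46%. The other 4 were at or below 2.21% then. In MEFs Trp63 was already at 41.6% and Ovol1 at 8.31%, against 0.974% for Grhl1 and 0.0641% for Ehf. Ovol1 was not called as higher at day 3. At day 6 the shares of those that peaked at day 9 ran from 56.5% for Grhl1 and 47.2% for Ovol2 through 42.1% for Ovol1 and 31.2% for Grhl2 to 16.2% for Grhl3. Elf3 was at 9.37%. These shares describe 2 libraries per group, and the order between genes was not tested.

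**Figure D3:**
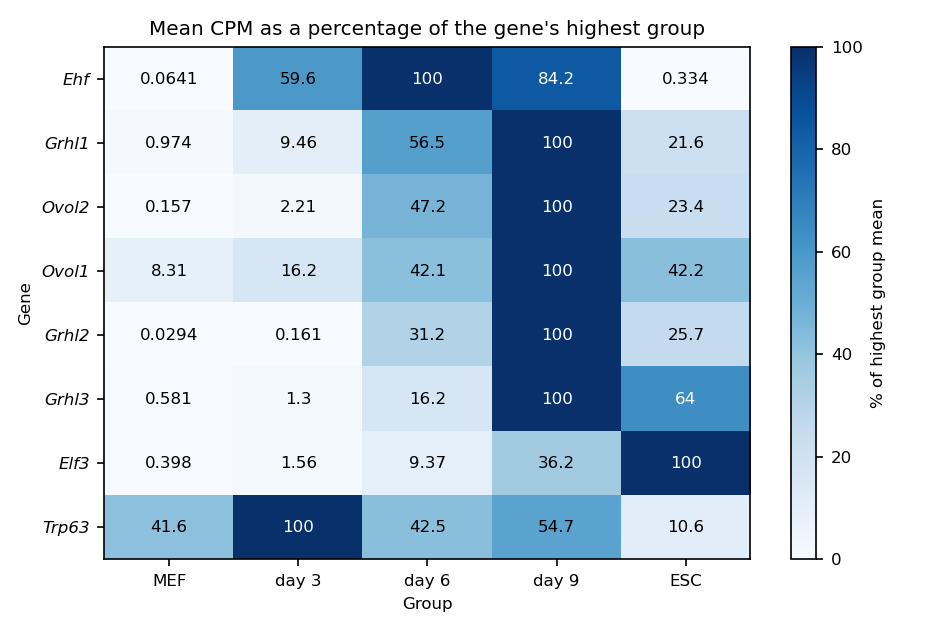
Mean CPM of each factor (y axis) in each group (x axis) as a percentage of that gene's highest group mean, darker for higher. Ehf is at 59.6% by day 3, 5 factors peak at day 9 and Elf3 peaks in ESCs.

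Between genes, levels were compared per transcript length, as TPM. The summed TPM of the 8 was 0.217 for MEFs, 20.3 for day 3, 42.6 for day 6, 46.4 for day 9 and 16.4 for ESCs. Ehf made up 95.5% of that sum at day 3, 83.0% at day 6 and 55.6% at day 9, but 1.79% in ESCs. At day 9 Grhl2 followed with 15.8%, ahead of Ovol2 (7.87%), Grhl1 (7.09%), Elf3 (6.9%) and Grhl3 (6.02%). In ESCs Elf3 held 61.5%, Grhl2 13.3% and Grhl3 12.1%. The group means of Ovol1 and Trp63 were at most 0.297 and 0.112 TPM. Of the 2 Ets factors, Ehf thus made up most of the sum at day 3, day 6 and day 9, and Elf3 most of it in ESCs.

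**Figure D4:**
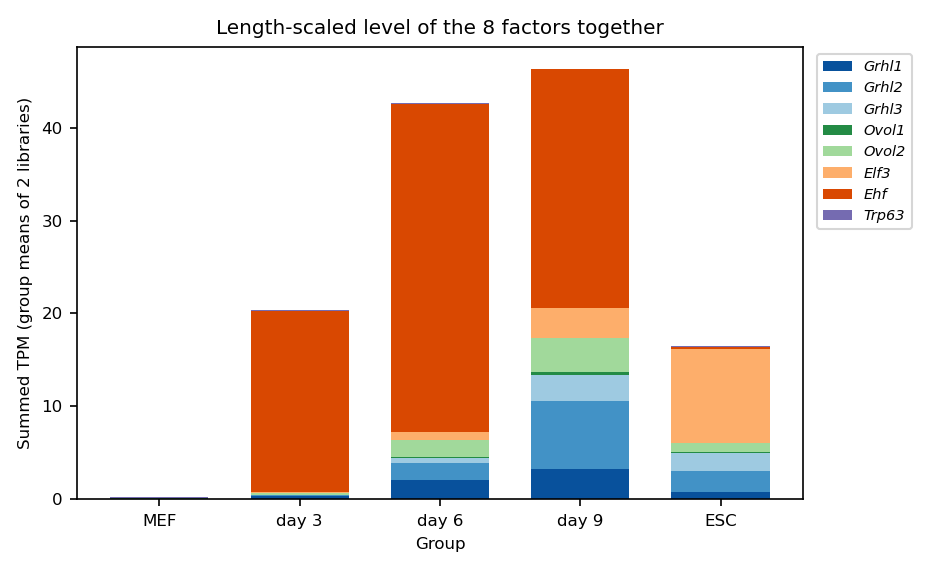
Summed TPM of the 8 factors (y axis, linear, group means of 2 libraries) in the 5 groups (x axis), with one colour per gene. Ehf fills most of the day 3 and day 6 bars, and Elf3 most of the ESC bar.

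Other genes of epithelia were followed as lists. Among all tested genes, 14.6% were higher and 14.5% lower at day 3, 9.26% and 10.2% at day 6, and 5.18% and 2.68% at day 9. In ESCs against day 9, 18.6% were higher and 14.3% lower. These shares stand beside the counts of this list and of those that follow. Of 29 junction, adhesion and surface genes of epithelia, all tested, 11 rose and 8 fell at day 3. Perp, a desmosomal membrane protein, rose by a log2 change of 5.51, and Cdh1, which encodes E-cadherin, by 4.62, while Krt7, a simple epithelial keratin, fell (log2 change -3.09). At day 6, 22 of the 29 rose, led by Cldn6 (8.41) and Epcam (7.66), and 1, Krt19 (-1.05), fell. At day 9, 26 of 29 rose, among them the protease gene Prss8 (3.7). In ESCs 23 of 29 were lower than at day 9, among them Rab25, a trafficking GTPase (-4.7). The list's median log2 change was 0.88, 3.48, 2.5 and -2.08 at the 4 steps.

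Genes of basal keratinocytes, where p63 acts, rose in part. Trp63 stayed under 1 CPM in the same libraries, and any link between them was not tested. Of 16 listed, 13 were tested: 5 rose and 2 fell at day 3, 9 rose at day 6, 9 rose at day 9, and 8 were lower in ESCs than at day 9. Itgb4, a hemidesmosome integrin, went from 3.37 to 315 CPM by day 3 (log2 change 6.55), and Krt6a, a stress keratin, from 0.465 CPM at day 6 to 26.4 CPM at day 9 (5.82). The defining markers Krt5, Krt14 and Dsg3 were below 0.1 CPM in both day 3 libraries. The summed level of 4 basal markers (Krt5, Krt14, Col17a1 and Dsg3) was 2.4 to 3.41 CPM in MEFs and 0.414 to 0.7 CPM at day 3. It was 61.6 to 62.6 CPM at day 9, where Col17a1 alone had a mean of 59.2 CPM, Krt14 2.13 CPM and Krt5 0.515 CPM. The mean of Krt14 had been 2.02 CPM in MEFs. The 4 markers of simple epithelium (Cdh1, Epcam, Krt8 and Krt18) summed to 1020 to 1070 CPM at day 9 and 521 to 524 CPM in ESCs.

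Genes of the cornified envelope, the outer shell of terminal keratinocytes, moved less uniformly. Of 13 listed, 9 were tested, of which 1 rose and 4 fell at day 3, 4 rose at day 6 and 4 rose at day 9. Tgm1, a transglutaminase that crosslinks the envelope, rose by 5.85 at day 6 and was at 71.2 CPM at day 9. Ppl, which encodes periplakin, rose by 3.7 at day 9. Against day 9, ESCs had 4 of the 9 higher and 2 lower, among the latter Ppl (-1.55) and Evpl (-1.08).

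Mesenchymal transcription factors that repress epithelial genes were followed in the same libraries. Of 7 listed (Zeb1, Zeb2, Snai1, Snai2, Twist1, Twist2 and Prrx1), 4 fell at day 3, all 7 fell at day 6 and 4 fell at day 9. Zeb2 fell from 151 to 20.3 CPM at day 3 (log2 change -2.9, SE 0.05, edgeR adjusted p = 5.9e-15). Zeb1, which Ovol and Grhl proteins are known to repress, was at 62.4 CPM in MEFs and 77.5 CPM at day 3 (0.31, under 2-fold), and fell at day 6 by 1.12 on the log2 scale (SE 0.06, edgeR adjusted p = 4.5e-10) and at day 9 by 1.49 (SE 0.07, edgeR adjusted p = 9.8e-10). Ehf was at 107 and 109 CPM at day 3, in whole cultures in which Zeb1 was not lower than in MEFs. Grhl2 rose by 7.52 at day 6, the step at which all 7 fell and sorting was added. Any link between these changes was not tested. In ESCs all 7 were higher than at day 9, such as Twist2 (7.34) and Snai2 (4.88). Of 8 fibroblast markers 7 were higher too, with a sum of 33.5 to 38.1 CPM at day 9 and 3590 to 3700 CPM in ESCs, and their part in this result was not tested. In MEF libraries each of the 8 epithelial factors was at 0.335 CPM or below.

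**Figure D5:**
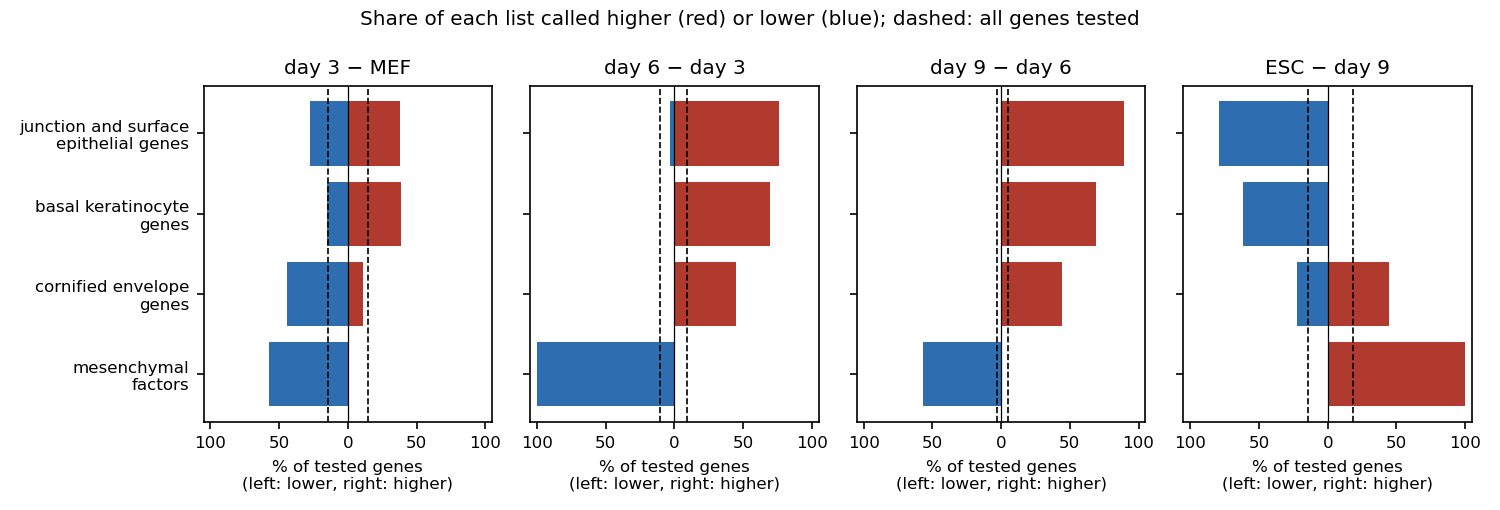
Share of tested genes of 4 lists (y axis) called higher (red, right) or lower (blue, left) at each step (x axis, percent), with dashed lines for the share of all tested genes. Epithelial lists extend right and the mesenchymal list left at day 6 and day 9, and both turn around in ESCs, except that the cornified envelope list has more genes higher than lower there.

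Relatives of the members did not share one direction. Among 11 (Tfcp2, Tfcp2l1, Ubp1, Ovol3, Elf1, Elf2, Elf4, Elf5, Spdef, Trp53 and Trp73), 9 were tested. At day 3, 2 rose and 2 fell, beside 14.6% and 14.5% of all tested genes. At day 6, 3 rose and 1 fell, beside 9.26% and 10.2%. At day 9, 3 rose and 1 fell, beside 5.18% and 2.68%. Tfcp2l1, a Grainyhead-related factor of naive pluripotency, rose by 4.96 at day 6 and continued to 173 CPM in ESCs. Trp73, the p53 family member closest to Trp63, rose by 5.69 at day 6 (SE 0.44, edgeR adjusted p = 5.2e-08) and by 2.14 at day 9 to a mean of 7.24 CPM. Elf5, an Ets factor of trophoblast and mammary gland, had means of 0.536 CPM for MEFs, 0.215 for day 3, 1.05 for day 6, 8.82 for day 9 and 0.588 for ESCs. The summed level of 4 trophoblast markers, Elf5 among them, was 1.42 to 1.49 CPM at day 3, 56.2 to 58.4 CPM at day 9 and 39.7 to 41.8 CPM in ESCs. Tfap2c made up most of it at day 9 (48.3 CPM), Eomes was at 0.189 CPM and Cdx2 under 0.1 CPM there, and their part in the rise of Elf5 was not tested. Elf4, an Ets factor of blood cells, fell at day 6 by 2.1 and at day 9 by 1.8 on the log2 scale.

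For each member the protein-coding genes with the most similar course were found by the root mean square difference of centred log2 CPM over the 10 libraries. A prior count of 2 went into the log2 values, which flattens courses that rest on few reads, such as that of Ovol1. For Ehf they were Pllp (0.5), at 0.177, 111, 218, 174 and 1.62 CPM from MEF to ESC, and Abcc12 (0.65). For Grhl2 they were Slc35f2 (0.37) and Ap1m2 (0.54), for Grhl1 Fam222a (0.33) and Aifm3 (0.34), and for Grhl3 Trp73 (0.35) and Tnk1 (0.44). Ovol2 lay closest to Cd59b (0.28) and 1700008F21Rik (0.29), and Ovol1 to Lama5 (0.29) and Ccdc158 (0.29). Elf3 lay closest to Slc39a4 (0.45) and Ly6g6e (0.46). The genes nearest to Trp63 were Chmp2b (0.31) and Zfp579 (0.32), for a course that rests on few reads. Among the members themselves the closest pair was Grhl1 and Ovol2 (0.82) and the most distant was Elf3 and Ehf (4.71), the 2 Ets factors.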

How the data were processed

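Single reads of 50 nt came from stranded mRNA libraries that share 1 batch label, per the labels' protocols. For 109617 transcripts per library, the authors deposited an estimated count, which is not normalized, and a TPM value, which is scaled by effective length to the same total in every library. They used Salmon 0.8.2 with mm10, per the submitters' processing notes; its options and annotation release are not given in the sources used here.

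Transcript values were added up within each gene, and the sums of counts were rounded. filterByExpr (minimum count 10, minimum total 15) left 20165 genes. CPM values use TMM library sizes. One quasi-likelihood model in edgeR 4.0.16 (R 4.3.3), with a mean for each of 5 groups, gave all comparisons, with Benjamini-Hochberg adjustment over all tested genes. Each SE was computed from the log2 fold change and its F statistic. Fitted changes against groups with a few reads depend on the prior count, so ratios of pooled reads with exact 95% intervals, which cover counting error only, stand beside them. A two-sided exact permutation test of 2 libraries against 2 cannot go below p = 0.333 and was not run. Replicates differed by more than sampling noise (chi-square per degree of freedom 2.82 to 5.18). Coordinates came from GENCODE M21 (GRCm38), which held 98.8% of gene IDs, and promoter sequences from RefSeq. Alternatives were DESeq2 1.42.0, limma 3.58.1, other filters, scalings and prior counts, a replicate block and each library left out.

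The members and the lists were chosen with earlier results of these data known. All members and mesenchymal factors were named whatever their values, with at most 2 rising and 2 falling genes of each other list per comparison and 2 similar genes per member. In counts simulated for day 3 with MEF over 20165 genes, edgeR called 143 of 150 genes changed 4-fold or more (95.3%) and 3 unchanged genes. The simulation gave every gene the same dispersion and its mean level over the 10 libraries. Changed genes were drawn from all tested genes, so this share does not describe members with few reads in MEFs.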

Additional observations from a re-analysis of the deposited data

How the results depend on the processing

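The main counts of members called were 5 higher for day 3 with MEF, 6 for day 6 with day 3, 5 for day 9 with day 6, 1 higher and 6 lower for ESC with day 9, 7 higher for day 9 with MEF, and 7 higher and 1 lower for ESC with MEF. Among log2 fold changes of single members under alternatives, 880 kept their call or lack of a call, 49 lost the call and 8 gained one. None of the called ones changed sign. Leaving out a library of a group not compared hardly alters a log2 change, and dropping the fold minimum reuses the main fit. The counts therefore include alternatives that could change little, and they leave out members not tested under a setting. Trp63 for day 9 with day 6, which was not called, went from 0.37 to -0.1 without day 6 replicate 1. Higher members numbered 3 for day 3 with MEF under a stricter filter (10 CPM in 2 libraries) and 1 with limma on log2(TPM + 1); 3 for day 6 with day 3 with limma on log2(TPM + 1); 3 for day 9 with day 6 under the stricter filter and with limma on log2(TPM + 1) and log2(TPM + 0.1); and 3 for ESC with MEF with limma on log2(TPM + 1). Lower members numbered 1 for day 6 with day 3 in fits to the 2 groups (Trp63), 1 (Ehf) for day 9 with day 6 when no minimum fold was set, 3 for ESC with day 9 under the stricter filter, and 0 for ESC with MEF with DESeq2, the stricter filter, fits to the 2 groups and both limma settings (Trp63 not called or not tested). The stricter filter tests fewer members, and a pseudocount shrinks low genes. With each library left out in turn, higher members ranged from 4 to 5, 5 to 6 and 3 to 5 at the first 3 steps, and lower members from 0 to 1 for day 6 with day 3, 5 to 6 for ESC with day 9 and 0 to 1 for ESC with MEF. The replicate block gave 4 higher for day 3 with MEF, losing Trp63 (edgeR adjusted p = 0.071), and changed no other member count. Deviations of same-numbered libraries, taken over all tested genes, correlated at 9.91e-05 on average (-0.0205 to 0.0222). Pairing by number was thus not seen, but a shared source that affects few genes would not show in this correlation. Library-size scaling moved the median over all genes (log2) from 0.08 to 0.285 for day 3 with MEF, 0.193 to 0.482 for day 9 with MEF and 0.099 to 0.438 for ESC with MEF. The share of all genes called ranged over the alternatives from 13.2% to 64.9% for day 3 with MEF, 6.95% to 56.5% for day 6 with day 3, 1.89% to 34.6% for day 9 with day 6, 13.7% to 69.6% for ESC with day 9, 22.9% to 74.9% for day 9 with MEF and 25.1% to 76.6% for ESC with MEF, lowest with limma on log2(TPM + 1) and highest where no minimum fold was set. Depth limits Trp63 and Ovol1 most, with at most 30 and 68 reads in a library.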

Other observations

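Ehf sits among genes that did not follow it at day 3. Within 250 kb on chromosome 2, a set chosen after the values of Ehf were seen, GENCODE M21 has 4 other protein-coding genes. Elf5, a second epithelial Ets gene 108410 bases away, differed by -1.32 at day 3 (SE 0.36, edgeR adjusted p = 0.0056) while Ehf rose by 9.81. Elf5 then rose by 2.28 at day 6 (SE 0.32, edgeR adjusted p = 2.9e-05) and by 3.08 at day 9 (SE 0.22, edgeR adjusted p = 8.3e-08), when Ehf changed by less than 2-fold. Cat, Apip and Pdhx, which encode catalase, a methionine salvage enzyme and a pyruvate dehydrogenase subunit, differed at day 3 by 0.01, 0.4 and 0.03.

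The division of reads among transcripts was described for members with enough of them. Reads of 50 nt often match several transcripts of a gene, and no test was made. For Ehf the full-length transcript Ehf-001 held 88.5% and 88.4% of the reads in day 3 libraries, 75.6% and 75.7% in day 6 libraries, and 85.7% and 81.2% in day 9 libraries. The 43 Ehf reads of ESCs were divided otherwise, with 43.1% on Ehf-006, a retained-intron transcript, and 12.6% on Ehf-001. For Grhl2, Grhl2-003, an internal transcript annotated as not coding, held 21% and 21.6% in day 6 libraries, 34.3% and 26.8% in day 9 libraries, and 31.7% and 25.7% in ESC libraries. For Grhl1, whose transcripts start 8466 bases apart, the share of the upstream one was 49.9% and 80.4% in the 2 day 3 libraries, a spread as wide as that between groups (49.9% at day 6 to 71.6% at day 9, leaving aside MEFs with 13 reads). Trp63 reads were assigned to transcripts of the internal start, which encode the form without the transactivation domain, in every group except day 9, where 8.86 of 26 reads went to the upstream start, all in replicate 1.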
